A study of Homo sapiens with 8 samples.

Results

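The cancer stem cell and aldehyde dehydrogenase (ALDH) markers examined here were 10 genes, ALDH1A1, ALDH1A3, ALDH2, ALDH3A1, PROM1, CD44, CD24, EPCAM, LGR5 and SOX9. They were taken by symbol from the 34809 gene names on an Agilent expression array, all 10 were on it, and 8 of them were among the 20450 genes that could be tested. The arrays held RNA of HuCCT1, an established human intrahepatic cholangiocarcinoma cell line. The control cells carried the vector shControl or the vector shNontarget, with 2 arrays each, and the BEX2-knockdown cells were the sublines shBEX2-1 and shBEX2-2, with 2 arrays each. Every group therefore carried a short hairpin vector, and no untransfected cells were analysed here. The study describes a single control hairpin, against luciferase, and the labels do not say which of the control vectors held it. The study also measured ALDH activity of these cells with the ALDEFLUOR assay, which reads enzyme activity in live cells, whereas the arrays read RNA alone. Nothing in the labels says that the arrays of one vector came from separate cultures, so that p-values measure the spread between these arrays, which may be technical.

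Cancer stem cells are the tumour cells thought to renew themselves and to start new tumours, and they are usually sorted by surface proteins or by high ALDH activity. The ALDH1A enzymes oxidise retinaldehyde to retinoic acid, a ligand of nuclear receptors, and they are commonly held to give much of the ALDEFLUOR signal. CD133 (the product of PROM1), CD44, CD24 and EPCAM are the usual surface markers, LGR5 is a Wnt-associated receptor of epithelial stem cells, and SOX9 is a transcription factor of bile duct cells and their progenitors.

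Levels are given as log2 of the processed intensity minus log2 of the 75th percentile of the same array, and differences are differences of these levels. A probe was called detected on an array where the scanner software marked it as well above background. A level belongs to its own probe, so that levels of different genes were not compared, and in RNA of whole cultures fewer cells with a marker and less of its RNA per cell cannot be told apart. The 4 knockdown arrays were compared with the 4 control arrays by limma with Benjamini-Hochberg adjustment over all tested genes, and a gene was called at an adjusted p under 0.05.

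Of 58717 spots for genes, 59.8% to 64.6% on each array gave a signal well above background and none was saturated, and precision is limited by having only 8 arrays. The shNontarget arrays stood apart. Their levels differed by more than 1 in 34.9% of the tested genes, where the corresponding share was 1.76% for shControl, 1.56% for shBEX2-1 and 0.557% for shBEX2-2. Results are therefore given with and without them. All control arrays lay in row 1 of the slide and all knockdown arrays in row 2, so that position and group cannot be told apart. BEX2 had levels of -3.36 and -3.91 in shControl, -2.70 and -3.77 in shNontarget, -5.21 and -5.54 in shBEX2-1, where it was not well above background, and -4.92 and -4.60 in shBEX2-2 cells. Every knockdown array lay below every control array (difference -1.63, standard error 0.32, adjusted p = 0.0116 by limma). With normexp background correction the difference was -0.45 (adjusted p = 0.0800), and with shNontarget as the only control it was -1.83 (adjusted p = 0.0785). All 4 keratin markers of bile duct epithelium were detected on all 8 arrays, as were 1 of 5 hepatocyte markers (SERPINA1), 2 of 6 fibroblast markers (COL1A1 and LUM) and 2 of 3 endothelial markers (CDH5 and VWF). Of the other markers in these lists, ALB, TTR, PECAM1, COL1A2 and COL3A1 were detected on none. APOA1 was detected on 3 control and 3 knockdown arrays, DCN on 2 arrays, and PDGFRB and CYP3A4 on 1 each. The leukocyte markers CD68 and CD14 were detected on all 8 arrays, PTPRC on 3 control and 4 knockdown arrays, and CD3E on 3 arrays.

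The 60-base probes of PROM1, the detected marker whose mean varied most among the vectors, of ALDH1A1 and LGR5, the markers at background, and of ALDH3A1, whose probes did not read alike, are printed here as the array files give them, 5′ to 3′ and with no base singled out in capitals.
PROM1, A_33_P3389842: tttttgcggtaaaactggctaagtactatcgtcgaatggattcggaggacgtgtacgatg
ALDH1A1, A_23_P83098: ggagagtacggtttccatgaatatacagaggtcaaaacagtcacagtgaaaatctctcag
ALDH3A1, A_23_P207213: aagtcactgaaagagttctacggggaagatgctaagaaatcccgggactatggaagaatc
LGR5, A_23_P98974: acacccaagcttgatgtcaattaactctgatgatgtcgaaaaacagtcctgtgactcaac
The array design places the PROM1 probe at chr4:15982046-15982105 (minus strand), this ALDH1A1 probe at chr9:75516136-75516195 (minus strand) and the LGR5 probe at chr12:71978325-71978384 (plus strand) of hg19, and gives no position for this ALDH3A1 probe. The exon that each lies in was not analysed here.

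Among the aldehyde dehydrogenases, ALDH1A1 was not detected on any of the 8 arrays. Its brighter probe (A_33_P3379644, chr9:75540401-75540460) had intensities of 17.7 and 15.8 in shControl, 16.9 and 17.3 in shNontarget, 9.77 and 11.3 in shBEX2-1 and 3.31 and 8.13 in shBEX2-2 cells, all at background. The probe whose sequence is given (A_23_P83098) read between 3.52 and 8.37, also at background. A fall of ALDH1A1 RNA could therefore not have been detected here, and no array showed it above background. LGR5, read by a single probe, was likewise not detected on any array, with intensities between 3.01 and 8.11.

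ALDH1A3, another retinaldehyde dehydrogenase, was detected on all 8 arrays. Its levels were 5.44 and 5.44 in shControl, 5.61 and 5.34 in shNontarget, 5.87 and 5.97 in shBEX2-1 and 5.51 and 5.46 in shBEX2-2 cells. Both shBEX2-1 arrays lay above all other arrays, while the shBEX2-2 arrays lay within the range of the controls. Over both sublines the difference was 0.25 (standard error 0.16, adjusted p = 0.373 by limma).

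ALDH2, the mitochondrial enzyme that oxidises acetaldehyde, had levels of 0.15 and 0.16 in shControl, 0.40 and -0.12 in shNontarget, -0.09 and -0.21 in shBEX2-1 and 0.18 and 0.20 in shBEX2-2 cells. The groups overlapped, and the difference was -0.13 (standard error 0.15, adjusted p = 0.647 by limma). ALDH3A1, which acts on medium-chain and aromatic aldehydes, is represented by 2 probes. The brighter one (A_33_P3238433, chr17:19641655-19641714) was detected on all 8 arrays, with levels of -4.38 and -4.15 in shControl, -4.09 and -3.86 in shNontarget, -3.29 and -4.44 in shBEX2-1 and -4.08 and -3.64 in shBEX2-2 cells. The shBEX2-1 arrays held both its highest and its lowest level, and the difference was 0.26 (standard error 0.27, adjusted p = 0.589 by limma). Its other probe, A_23_P207213, was detected on 1 array, shBEX2-2 replicate 2.

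Of the surface markers, PROM1 varied most. Its levels were -1.42 and -1.26 in shControl, -2.33 and -1.98 in shNontarget, -2.75 and -2.83 in shBEX2-1 and -1.86 and -2.05 in shBEX2-2 cells. The shBEX2-1 arrays were the lowest and the shControl arrays the highest, with the shBEX2-2 and shNontarget arrays intermingled between them. PROM1 encodes CD133, a membrane glycoprotein of stem and epithelial cells. Over both sublines its difference was -0.63 (standard error 0.30, 95% interval -1.32 to 0.06, adjusted p = 0.220 by limma).

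CD44, the hyaluronan receptor, had levels of 6.09 and 6.13 in shControl, 6.13 and 6.15 in shNontarget, 6.04 and 6.02 in shBEX2-1 and 5.78 and 5.86 in shBEX2-2 cells. The knockdown levels were all below the control levels, as in 10.7% of all genes, with the shBEX2-2 arrays the lowest. Any gene without overlap gets p = 0.0286 in an exact permutation test, two-sided, and no smaller p is possible with 4 arrays a group. That p therefore only restates the separation, and it takes the arrays of a vector as independent. The difference was -0.20 (standard error 0.13, adjusted p = 0.362 by limma).

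CD24, a small glycosylated membrane protein, had levels of 4.11 and 4.09 in shControl, 3.90 and 2.80 in shNontarget, 3.49 and 3.82 in shBEX2-1 and 3.38 and 3.23 in shBEX2-2 cells. The knockdown arrays lay below 3 of the 4 control arrays and above the fourth, shNontarget replicate 2. The difference was -0.25 (standard error 0.29, adjusted p = 0.637 by limma). The array design maps the CD24 probe outside the gene's own locus, and CD24 has near-identical copies, so that its source is uncertain.

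EPCAM, an epithelial adhesion molecule, had levels of 5.02 and 4.98 in shControl, 5.05 and 4.21 in shNontarget, 4.75 and 4.71 in shBEX2-1 and 5.02 and 5.01 in shBEX2-2 cells. Both sublines lay within the range of the controls, which shNontarget replicate 2 alone extended downward, and the shBEX2-1 arrays lay below the other 3 control arrays. The difference was 0.06 (standard error 0.21, adjusted p = 0.894 by limma), and its sign turned to -0.15 without shNontarget replicate 2.

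SOX9 had levels of -0.81 and -0.93 in shControl, -0.64 and -0.57 in shNontarget, -1.21 and -1.14 in shBEX2-1 and -1.14 and -1.01 in shBEX2-2 cells. Here too the groups did not overlap, the knockdown levels being lower (p = 0.0286 in the same exact permutation test, with the same limits). The difference was -0.38 (standard error 0.13, 95% interval -0.67 to -0.09), and it did not pass the threshold (adjusted p = 0.0842 by limma).

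**Figure D1:**
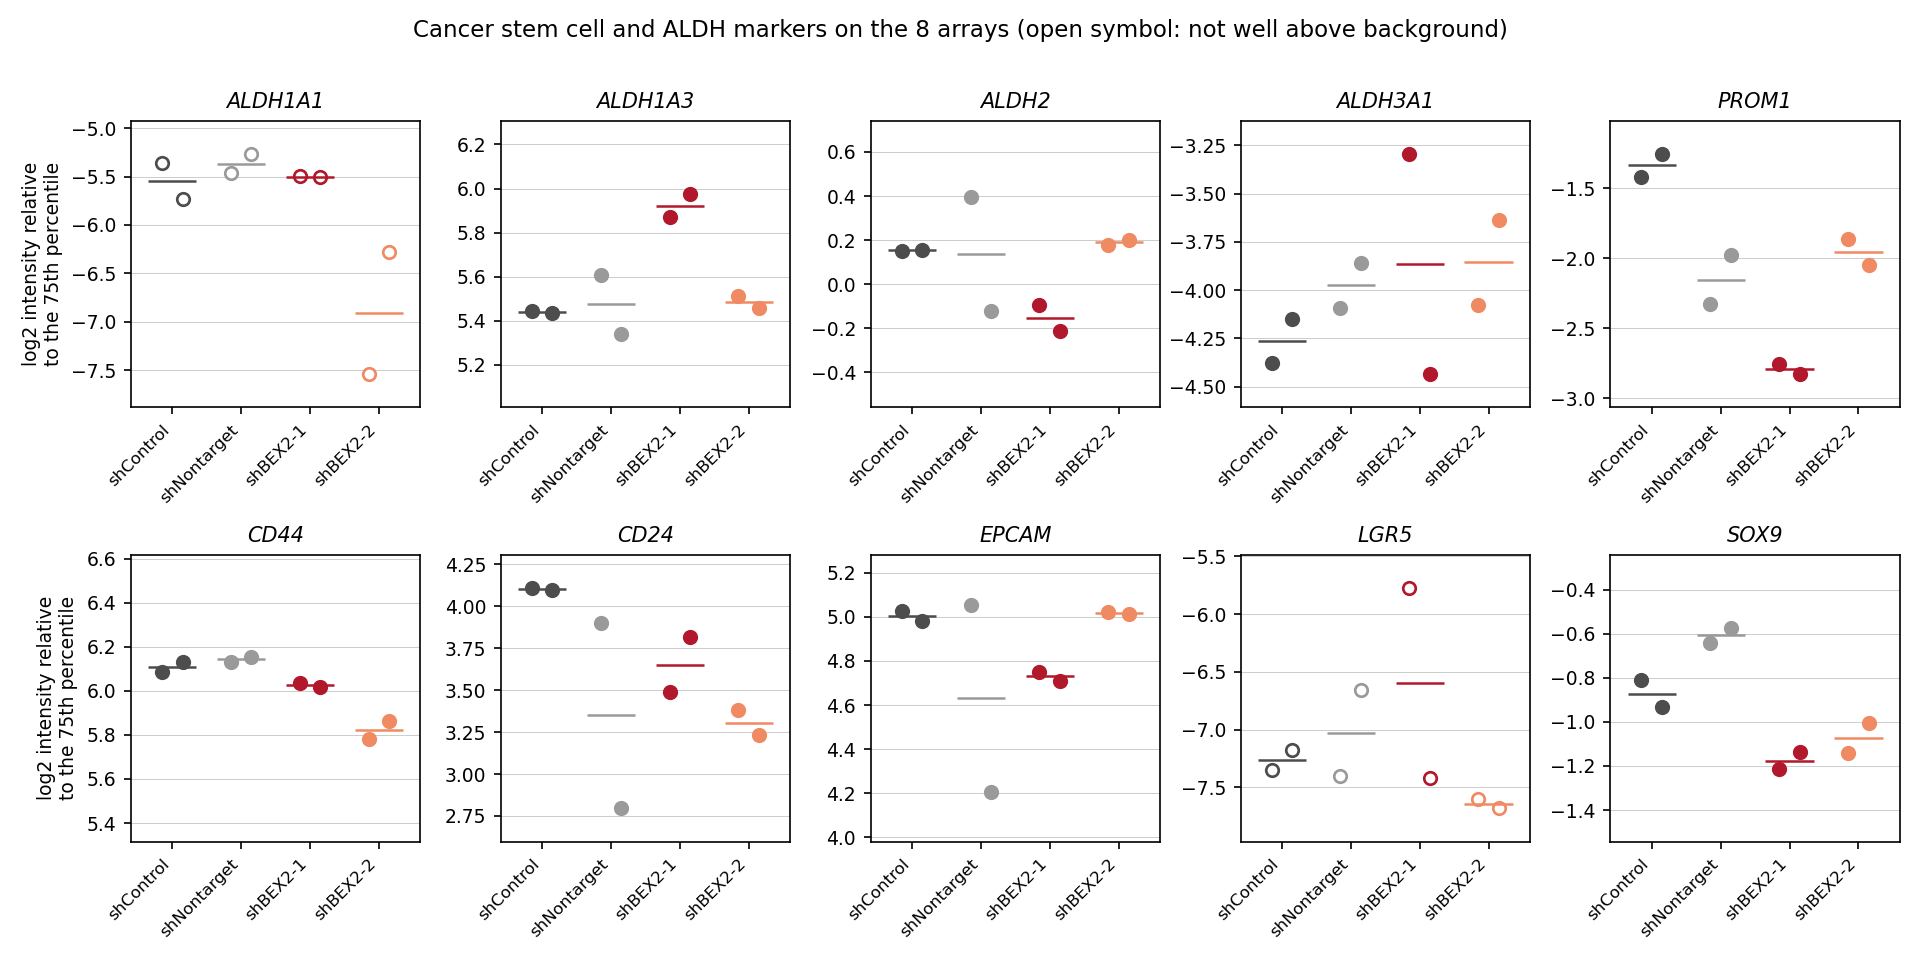
Level of each marker on the 8 arrays, as log2 intensity relative to the array's 75th percentile, by vector, with 2 arrays each and a line at their mean. Open symbols are arrays on which the probe was not well above background, and the vertical axes differ between panels. PROM1 is lowest on the shBEX2-1 arrays (-2.75 and -2.83) and highest on the shControl arrays (-1.42 and -1.26), and all SOX9 and CD44 levels of the sublines lie below those of the controls.

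Over all arrays, 0 of the 8 tested markers were called between knockdown and control cells by limma, where 13.0% of all tested genes were called, 6.68% as higher and 6.27% as lower in knockdown cells. At an unadjusted p under 0.05 limma gave 1 marker, SOX9, and 5677 of all 20450 genes. The methods' t-test called 0 markers and 2169 genes after Benjamini-Hochberg adjustment, and gave 2 markers and 5418 genes at an unadjusted p under 0.05. The median difference of the 8 markers was -0.16, against 0.03 over all genes, with 3 markers higher and 5 lower. SOX9 and CD44 were lower with no overlap between the groups, a pattern that 10.7% of all genes showed. Without the shNontarget arrays 2 markers passed, PROM1 (-1.03, standard error 0.29, adjusted p = 0.0286) and CD24 (-0.62, standard error 0.15, adjusted p = 0.0181), but 33.5% of all genes then passed as well (limma). Leaving out shNontarget replicate 2 alone gave CD24 (-0.56, adjusted p = 0.0342), with 21.1% of all genes called. PROM1 also passed in a model with a mean for each of the 4 vectors (-0.63, standard error 0.13, adjusted p = 0.0300), which called 13.6% of all genes. The spread in that model is that between the 2 arrays of a vector and leaves out differences between vectors. For PROM1 the difference between shNontarget and shControl cells was -0.81.

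To set the sublines apart, each vector was given its own mean, with a common spread for all 8 arrays, and each subline was compared with the average of both control vectors. PROM1 was the only one of the 8 tested markers called in shBEX2-1 cells, with a difference of -1.04 on the log2 scale, or 2.06-fold lower (standard error 0.16, adjusted p = 0.0198 by limma), in a comparison that called 7.01% of all genes. In shBEX2-2 cells its difference was -0.21 (standard error 0.16, adjusted p = 0.522), and 0 markers were called there against 9.67% of all genes, with 1 marker, SOX9, at an unadjusted p under 0.05. The PROM1 call rested on the control vector. Its level already differed by -0.81 between shNontarget and shControl cells, and against shNontarget alone the difference in shBEX2-1 cells was -0.64 (adjusted p = 0.137) and that in shBEX2-2 cells turned to 0.20 (adjusted p = 0.632). Without any one of the shControl, shBEX2-1 or shBEX2-2 arrays the difference stayed between -1.09 and -1.003, but the call was lost (adjusted p between 0.0753 and 0.201) in fits that called at most 178 of all genes. With 1 shNontarget array left out, the other is a lone array assumed to vary like the pairs of the other vectors. Without shNontarget replicate 1 the markers called in shBEX2-1 cells were 3 (ALDH1A3, PROM1 and SOX9) with 52.9% of all genes, and without shNontarget replicate 2 they were 6 with 52.6%. In shBEX2-2 cells 3 were then called each time, CD44 and SOX9 with either EPCAM or CD24, with 51.5% and 54.5% of all genes.

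ALDH1A3 differed by 0.47 in shBEX2-1 cells (standard error 0.15, adjusted p = 0.142 by limma) and by 0.03 in shBEX2-2 cells (adjusted p = 0.949). SOX9 differed by -0.44 in shBEX2-1 cells (adjusted p = 0.0943) and by -0.33 in shBEX2-2 cells (adjusted p = 0.163). For CD44 the order was the other way, with -0.10 in shBEX2-1 (adjusted p = 0.752) and -0.30 in shBEX2-2 cells (adjusted p = 0.278). Between the sublines 0 markers were called by limma, with 0.00978% of all genes called and 2 markers, PROM1 (-0.83, adjusted p = 0.250) and ALDH1A3 (0.44, adjusted p = 0.677), at an unadjusted p under 0.05. Between the control vectors 0 markers and 0% of all genes were called by limma, and PROM1 alone had an unadjusted p under 0.05 (adjusted p = 0.393). The absence of calls does not establish that these vectors were alike. The counts became 4 markers and 45.2% of all genes without shNontarget replicate 1, and 1 marker, PROM1, and 46.3% of all genes without shNontarget replicate 2. In these fits the spread comes from the pairs of the other vectors alone and leaves out that between the shNontarget arrays.

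When the shNontarget arrays were left out, so that shControl was the only control, more markers passed, as did far more genes. In shBEX2-1 cells 6 of 8 markers were called by limma, with 43.6% of all genes. ALDH1A3 was higher (0.48, adjusted p = 0.00216), and PROM1 (-1.45, adjusted p = 9.60e-05), CD24 (-0.45, adjusted p = 0.0152), ALDH2 (-0.31, adjusted p = 0.0152), SOX9 (-0.30, adjusted p = 0.0366) and EPCAM (-0.27, adjusted p = 0.0170) were lower. In shBEX2-2 cells 3 of 8 were called, with 44.1% of all genes, and all were lower. They were CD24 (-0.80, adjusted p = 0.00103), PROM1 (-0.62, adjusted p = 0.00424) and CD44 (-0.29, adjusted p = 0.0196). PROM1 and CD24 were thus lower than in shControl cells in both sublines. Between the sublines 4 of 8 were called, with 14.6% of all genes. ALDH1A3 (0.44, adjusted p = 0.0115) was higher in shBEX2-1 than in shBEX2-2 cells, and PROM1 (-0.83, adjusted p = 0.00481), ALDH2 (-0.34, adjusted p = 0.0266) and EPCAM (-0.29, adjusted p = 0.0344) were lower. The spread in these fits is that between the 2 arrays of a vector.

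**Figure D2:**
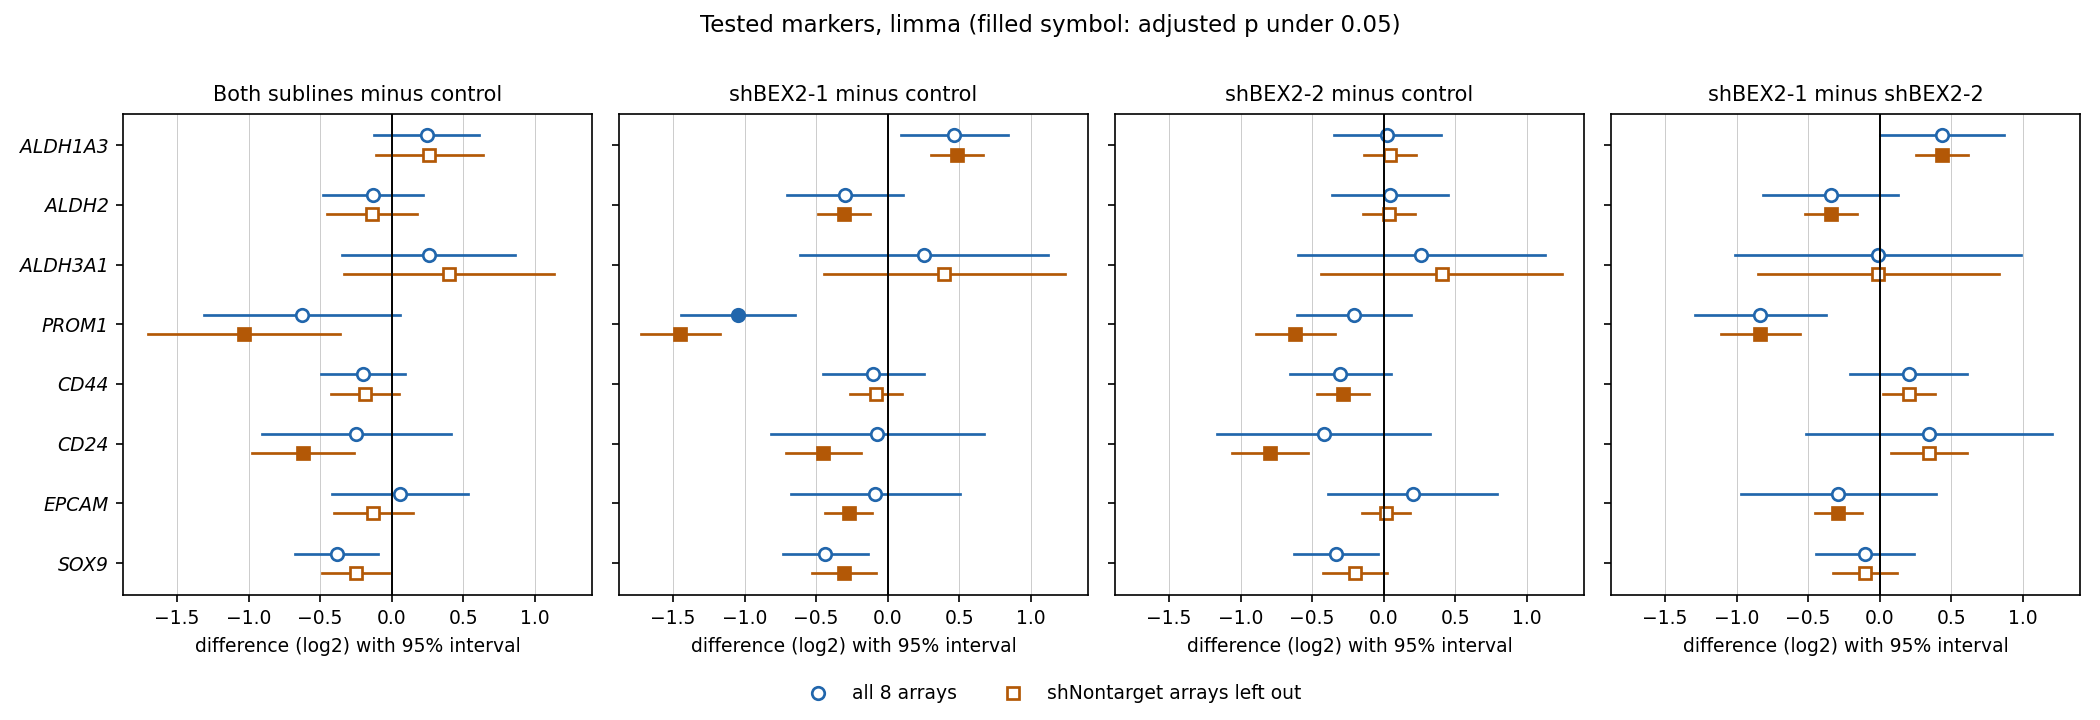
Difference of each of the 8 tested markers on the log2 scale with its 95% interval from limma, for both sublines together, for each subline against control and for shBEX2-1 against shBEX2-2. Circles use all 8 arrays, squares leave out the shNontarget arrays, and filled symbols have an adjusted p under 0.05. With all arrays PROM1 in shBEX2-1 cells (-1.04) is the only filled circle, and the intervals are narrower without the shNontarget arrays for most markers.

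The wider aldehyde dehydrogenase family held 19 listed genes, 4 of which are among the markers. Of these 19, 15 were tested, and ALDH1A1, ALDH1A2, ALDH3B2 and ALDH8A1 were detected on at most 1 array. In knockdown cells 4 of the 15 fell, 0 rose and 11 did not pass the threshold, with a median difference of 0.07 over the 15, where 6.27% of all genes were called as lower and 13.0% in either direction. ALDH1A3 was the only ALDH1A gene that could be tested, and it was not among those that fell. ALDH1L2, the mitochondrial enzyme of folate metabolism, had levels of -1.17 and -1.19 in shControl, -1.50 and -1.10 in shNontarget, -1.74 and -2.29 in shBEX2-1 and -3.18 and -3.58 in shBEX2-2 cells. All knockdown arrays lay below all control arrays, with the shBEX2-2 arrays far the lowest. It fell by 1.46 on the log2 scale (standard error 0.36, adjusted p = 0.0313 by limma). ALDH3B1, which acts on aldehydes from lipid peroxidation, differed by -0.93 (standard error 0.25, adjusted p = 0.0381) and its other probes by -0.43 and -0.81. ALDH1L1, the cytosolic counterpart of ALDH1L2, differed by -0.54 (standard error 0.15, adjusted p = 0.0411), and ALDH5A1, succinate-semialdehyde dehydrogenase, by -0.79 (standard error 0.22, adjusted p = 0.0479). In all 4 genes the knockdown arrays lay below all control arrays, as in 10.7% of all genes. ALDH18A1 (0.44, adjusted p = 0.0525) and ALDH3A2 (0.32, adjusted p = 0.143) lay above all control arrays on all knockdown arrays, as did 11.4% of all genes, and did not pass. The other ALDH3A2 probe, detected on all 8 arrays, differed by -0.12, the opposite sign. In shBEX2-1 cells 1 of the 15 was called, ALDH5A1 (-1.04, adjusted p = 0.0454 by limma), where 7.01% of all genes were called. In shBEX2-2 cells 2 were called, ALDH1L2 (-2.14, adjusted p = 0.00477) and ALDH3B1 (-1.36, adjusted p = 0.00948), where 9.67% of all genes were called. The sublines did not differ from each other past the threshold in ALDH1L2 (adjusted p = 0.177), ALDH3B1 (adjusted p = 0.301) or ALDH5A1 (adjusted p = 0.831) by limma. The family's count was 0 without either shControl array or either shBEX2-2 array, in fits that called 6.09% to 6.84% of all genes. It was 1 without shBEX2-1 replicate 1 (7.52% of all genes called) and 6 without shNontarget replicate 2 (21.1%). In the fits with no call the differences lay between -1.44 and -1.16 for ALDH1L2, -0.93 and -0.79 for ALDH3B1, -0.87 and -0.72 for ALDH5A1 and -0.56 and -0.51 for ALDH1L1. ALDH3B1 (adjusted p = 0.0517) and ALDH5A1 (adjusted p = 0.0633) were not called with the replicate block, the methods' t-test called neither them nor ALDH1L2, and with normexp background correction ALDH5A1 (-0.32, adjusted p = 0.111) and ALDH1L1 (-0.22, adjusted p = 0.208) were not called.

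**Figure D3:**
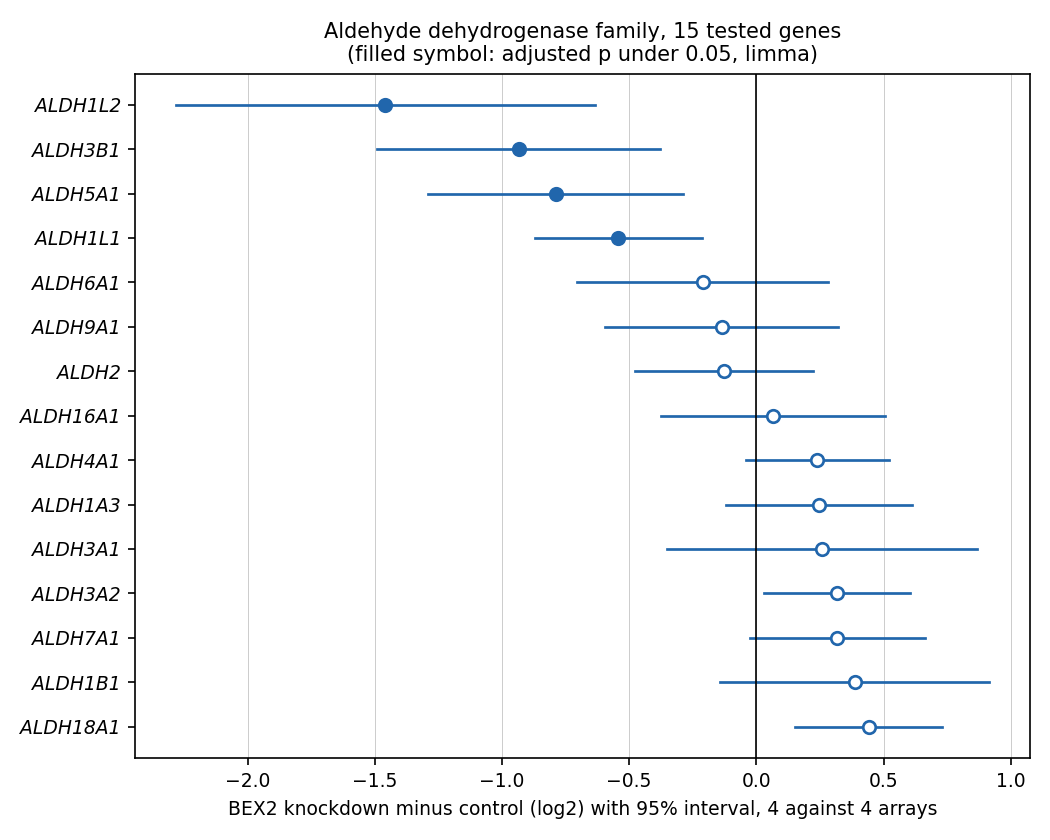
Difference between knockdown and control cells on the log2 scale, with its 95% interval from limma, for the 15 tested aldehyde dehydrogenase genes. Filled symbols mark the 4 genes with an adjusted p under 0.05, all of them lower, from -1.46 for ALDH1L2 to -0.54 for ALDH1L1, while ALDH1A3, ALDH2 and ALDH3A1 have intervals that include 0.

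Genes that carry, supply or read out the product of the ALDH1A enzymes were examined next. Of 21 listed genes of the retinoic acid pathway 15 were tested, of which 6 fell, 0 rose and 9 did not pass, with a median difference of -0.45. Over all genes 6.27% were called as lower and 13.0% in either direction, and the median difference was 0.03. STRA6, the membrane receptor that takes up retinol, had levels of 3.12 and 3.26 in shControl, 1.64 and 2.50 in shNontarget, 0.23 and 0.47 in shBEX2-1 and -0.31 and -0.31 in shBEX2-2 cells. It was lower on every knockdown array than on any control array, and lower on the shNontarget than on the shControl arrays. It fell by 2.61 on the log2 scale, or 6.10-fold (standard error 0.35, adjusted p = 0.00279 by limma), and its other probe differed by -0.63. DHRS3, which reduces retinaldehyde back to retinol, fell by 1.26 (standard error 0.22, adjusted p = 0.00776). RDH10, which oxidises retinol to retinaldehyde, differed by -0.62 (adjusted p = 0.0175), and the receptors RXRB and RXRA by -0.73 (adjusted p = 0.0106) and -0.52 (adjusted p = 0.0335). STRA6, DHRS3, RDH10 and RXRB were called in each subline alone, where 7.01% (shBEX2-1) and 9.67% (shBEX2-2) of all genes were called. Among the genes not called, RARRES1 differed by -0.87 (adjusted p = 0.0571), RARG by -0.45 (adjusted p = 0.0558) and RARA by -0.07 (adjusted p = 0.801). The count of 6 became 3 without shBEX2-1 replicate 1 (7.52% of all genes called) or shBEX2-2 replicate 2 (6.79%). It became 1 with shNontarget as the only control (1.66%).

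**Figure D4:**
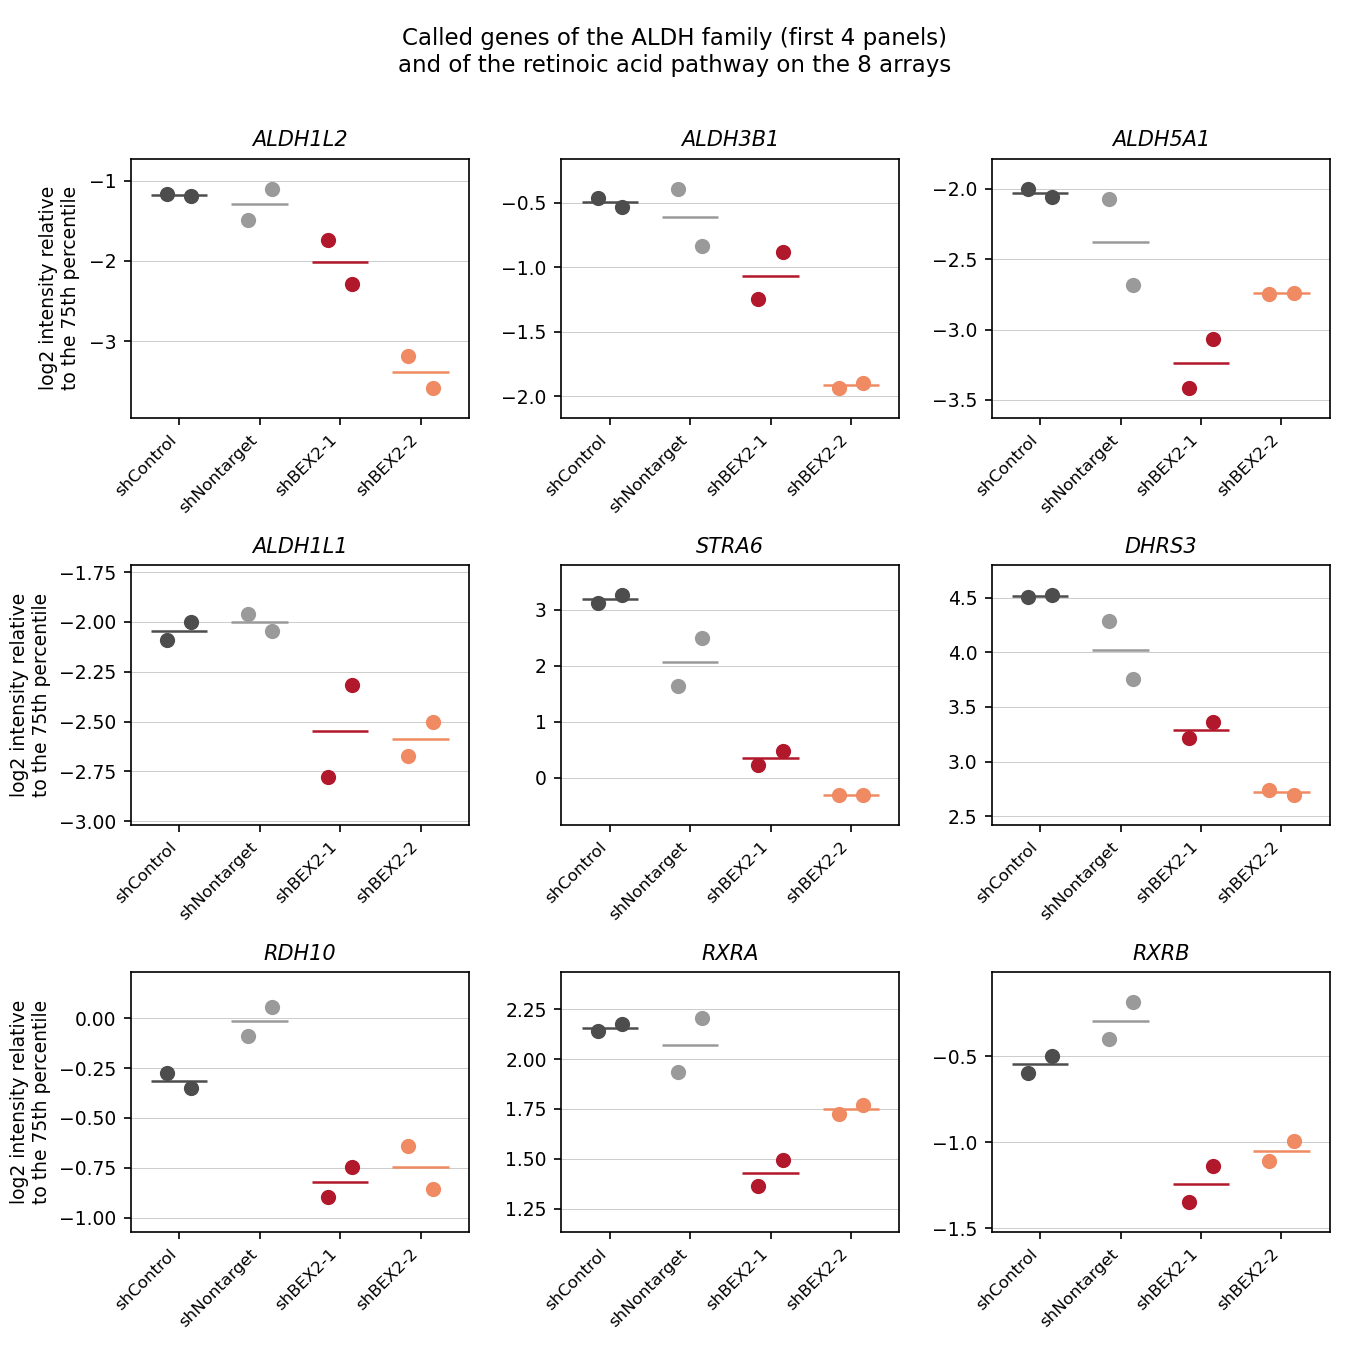
Levels on the 8 arrays of the 4 called aldehyde dehydrogenases (ALDH1L2, ALDH3B1, ALDH5A1 and ALDH1L1) and of STRA6, DHRS3, RDH10, RXRA and RXRB of the retinoic acid pathway, as log2 intensity relative to the array's 75th percentile, with a line at the mean of each vector. In each of the 9 panels the knockdown arrays lie below the control arrays, for STRA6 between -0.31 and 0.47 against 1.64 to 3.26.

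CD44 itself did not pass the threshold, while 5 of the 11 tested genes of 14 listed hyaluronan and CD44 partners rose, 0 fell and 6 did not pass, with a median difference of 0.46. Over all genes 6.68% were called as higher and 13.0% in either direction, and the median difference was 0.03. SRGN, a proteoglycan that binds CD44, had levels of -5.51 and -5.65 in shControl, -4.62 and -5.60 in shNontarget, -3.08 and -2.94 in shBEX2-1 and -3.28 and -3.29 in shBEX2-2 cells. It was detected on all 4 knockdown arrays and on 1 of the 4 control arrays, shNontarget replicate 1, and its fitted difference was 2.20 (standard error 0.26, adjusted p = 0.00170 by limma). Since 3 of the 4 control arrays were at background, the size of this rise is uncertain, and with normexp background correction it was 1.01 (adjusted p = 0.00167). The 4 knockdown arrays, where SRGN is high, alone met the filter for testing, so that its place in the count of 5 depends on that filter. With no filter on dim probes its adjusted p was 0.00416 by limma. HMMR, a hyaluronan receptor that also acts at the mitotic spindle, had levels of 1.11 and 0.86 in shControl, 2.06 and 1.31 in shNontarget, 2.68 and 2.60 in shBEX2-1 and 2.96 and 2.90 in shBEX2-2 cells. It rose by 1.45 (standard error 0.24, adjusted p = 0.00609), with both shNontarget arrays between the shControl and the knockdown arrays. EZR and MSN, which encode ezrin and moesin, the linkers of CD44 to actin, rose by 1.01 (adjusted p = 0.00901) and 0.75 (adjusted p = 0.0467). The third linker, RDX, differed by -0.41 (adjusted p = 0.436). HYAL3, of the hyaluronidase family, rose by 0.66 (adjusted p = 0.0192), and its other probe differed by 0.21. The count of 5 was 3 without any one shControl, shBEX2-1 or shBEX2-2 array, in fits that called 6.09% to 8.33% of all genes. Of the leukocyte markers, CD68 rose by 0.99 (adjusted p = 0.0472) and CD14 by 0.54 (adjusted p = 0.0296), PTPRC, the defining one, differed by 0.49 (adjusted p = 0.348), and CD3E was detected on 3 arrays. Without any one shControl, shBEX2-1 or shBEX2-2 array 0 leukocyte markers were called by limma. The summed level of this list, in multiples of the 75th percentile, was 0.734 to 0.918 on control and 1.23 to 1.63 on knockdown arrays. The RNA was of the HuCCT1 cell line, and any link between these genes and the rise of SRGN was not tested.

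**Figure D5:**
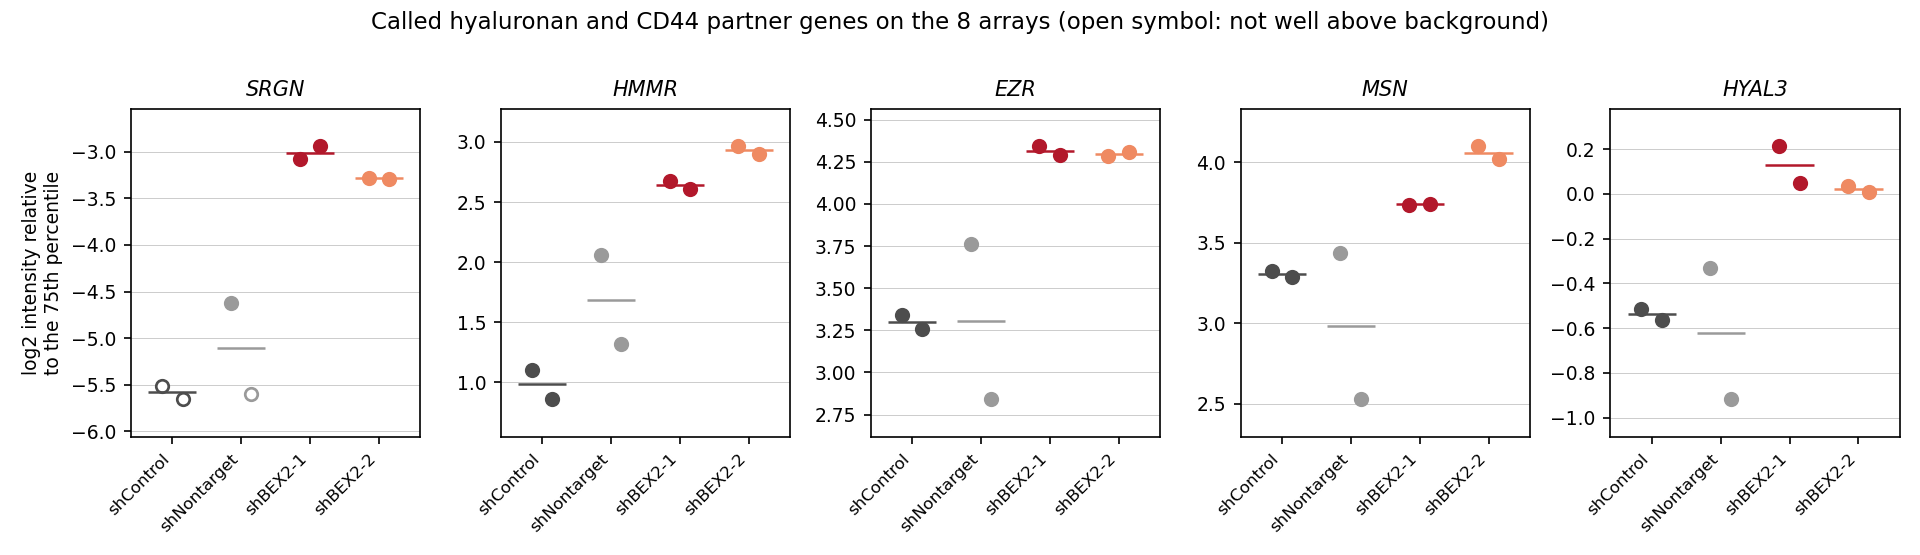
Levels of the 5 called hyaluronan and CD44 partner genes on the 8 arrays, as log2 intensity relative to the array's 75th percentile, with a line at the mean of each vector and open symbols where the probe was not well above background. SRGN lies between -3.29 and -2.94 on the knockdown arrays and between -5.65 and -4.62 on the control arrays, 3 of which have open symbols.

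Of 20 listed R-spondin and Wnt pathway genes around LGR5, 10 were tested and 1 was called, LGR4, a receptor related to LGR5, which rose by 0.62 (standard error 0.13, adjusted p = 0.0137 by limma). The share called over all genes was 13.0%, with 6.68% as higher. AXIN2, the usual Wnt target, was detected on 3 control arrays, both of shControl and shNontarget replicate 2, and on 0 of the 4 knockdown arrays, and was not tested. The difference of LGR4 was 0.58 without shControl replicate 1 (adjusted p = 0.0551), 0.59 without shBEX2-2 replicate 1 (adjusted p = 0.0573) and 0.61 without shBEX2-2 replicate 2 (adjusted p = 0.0513), no longer called each time. Without either shNontarget array 2 genes of the list were called, with 23.1% (without replicate 1) and 21.1% (without replicate 2) of all genes. Of the 9 EPCAM partners, 0 were called by limma, 1 had an unadjusted p under 0.05 and 0 were called by the methods' t-test. Without shNontarget replicate 2 limma called 2 of them, with 21.1% of all genes. In the SOX family 6 of 19 genes were tested, and SOX4 was lower in knockdown cells (-1.50, standard error 0.25, adjusted p = 0.00577), while SOX9 did not pass.

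Among 26 listed genes of bile duct cells and liver progenitors, 18 were tested, of which 4 fell, 0 rose and 14 did not pass. The share of all genes called as lower was 6.27%, and 13.0% were called in either direction. Besides SOX4 the listed genes that fell were HES1, a target of Notch (-2.09, standard error 0.41, adjusted p = 0.0124 by limma), AQP1, a water channel (-1.72, standard error 0.33, adjusted p = 0.0111), and JAG1, a Notch ligand (-1.10, standard error 0.22, adjusted p = 0.0125). The other AQP1 probe, detected on 6 arrays, differed by only -0.38. With normexp background correction HES1 differed by -0.99 and was not called (adjusted p = 0.0506). The list's count was 4 in 6 of the 8 fits without 1 array. Of the bile duct keratins KRT8 rose by 1.02 (adjusted p = 0.0165), and KRT7 (0.11, adjusted p = 0.756) and KRT19 (0.20, adjusted p = 0.543) did not pass. KRT8 was not called without shBEX2-1 replicate 1 (0.98, adjusted p = 0.0552) or shBEX2-2 replicate 1 (1.03, adjusted p = 0.0550), with a difference of much the same size. CFTR, the chloride channel of bile ducts, was not called over both sublines (0.01, adjusted p = 0.994) but was called in each subline with opposite signs, 0.78 in shBEX2-1 (adjusted p = 0.0220) and -0.76 in shBEX2-2 cells (adjusted p = 0.0181). Its control level was itself split, 0.66 and 0.80 in shControl against -1.38 and -1.22 in shNontarget cells. All knockdown levels (-1.07 to 0.57) lay below those of shControl and above those of shNontarget cells. The opposite signs therefore hold only against the average of the control vectors. The sublines differed by 1.53 (adjusted p = 0.0563 by limma).

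Of 14 other stem cell surface markers 10 were tested, and PROCR, the endothelial protein C receptor, rose by 1.44 (standard error 0.37, adjusted p = 0.0330 by limma). Of 12 pluripotency and self-renewal factors 8 were tested, of which MYC fell by 0.55 (adjusted p = 0.0171), KLF5 fell by 0.41 (adjusted p = 0.0492) and 0 rose, with a median difference of -0.57. Neither list kept a call without shBEX2-2 replicate 1 or 2 or without shControl replicate 1 or 2, and the pluripotency list kept none without shBEX2-1 replicate 1 either. Over these lists, the markers themselves left aside, 26 of 108 tested genes were called, 10 of them higher and 16 lower, where 13.0% of all genes were called, 6.68% as higher and 6.27% as lower. The lists were chosen with earlier results of these data known, so that this count is not a test of enrichment. With shNontarget as the only control 3 of the 108 were called, STRA6, SRGN and HES1, and 1.66% of all genes.

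The genes whose levels followed each marker most closely over the 8 arrays are a description, since the arrays come in pairs from 4 vectors on 1 slide. For PROM1 they were TMPRSS2 and FZD3, both with a Pearson r of 0.986. For ALDH1A3 they were MIA (0.986) and TMEM25 (0.971), and for ALDH2 they were MED21 (0.982) and VIM (0.980). CD24 ran with MARCKSL1 (0.994) and ANKRD58 (0.991) and EPCAM with TMBIM6 (0.995) and C9orf125 (0.987), and the low level on shNontarget replicate 2 is part of both patterns. CD44 was followed by TP53I3 (0.987) and DAK (0.982), and SOX9 by ZNF24 (0.985) and TMPRSS7 (0.977). For ALDH3A1 the closest were C11orf76 and ENST00000402630, both at 0.893.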

How the data were processed

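Per the labels, total RNA of HuCCT1 cells was labelled with Cy3 and read with Agilent Feature Extraction 10.7.3.1. The authors deposited, for each spot, the intensity that this software had processed (background removed, array trend corrected, 19.9% to 25.9% of spots at a surrogate for low signal), unscaled between arrays. Here control spots were dropped, spots marked non-uniform became missing values, and log2 intensities were expressed relative to the 75th percentile of their array. Genes were tested if a probe exceeded background clearly on 4 or more arrays, and a gene was read by its brightest probe. The deposited series table holds the same intensities, rounded, and no columns of other samples. Genes were fitted in R 4.3.3 with limma 3.58.1 (eBayes with trend) and statmod 1.5.0, and the script was tested on simulated data. Of the gene names, 19607 matched a RefSeq table of symbols and synonyms, all 10 markers among them. The study names a rank product for arrays without its threshold, so limma was used. Figures were drawn with Python 3.11.15 and matplotlib 3.10.9. The markers, gene lists and alternatives were chosen with earlier results of these data known. Genes are named if they are BEX2, a marker, a called ALDH gene, 1 of the 3 largest called rises or falls of a list, or 1 of the 2 genes most like a marker. Other named list genes were chosen after their values were seen. A called gene of the lists is counted but not reported here by name. Alternatives covered quantile normalization, normexp background with an offset of 50, the series table, the filter, the mean of probes, the replicate block, no trend, vector models, each control vector alone, the methods' t-test, a minimum log2 difference of 1 and each array left out. Leaving out both shNontarget arrays in the subline model was added after seeing the data.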

Additional observations from a re-analysis of the deposited data

Results flagged for a closer look

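Dixon's ratio, the gap of the most distant array over the whole range, was taken in 68 groups of 4 arrays (BEX2, the markers and called list genes). It passed its critical value in 9, where chance gives about 1 in 20 groups. Of these, 7 concern shNontarget replicate 2. On that array CD24 was low (2.80 against 3.90 to 4.11 on the other control arrays, ratio 0.843), as was EPCAM (4.21 against 4.98 to 5.05, ratio 0.912). ALDH5A1 (ratio 0.891), KRT8 (ratio 0.893), MSN (ratio 0.831) and PROCR (ratio 0.841) were low on it too, and JAG1 was high (1.53 against 0.63 to 0.76, ratio 0.856). SRGN had its highest control level on shNontarget replicate 1 (-4.62 against -5.65 to -5.51, ratio 0.865). Among the knockdown arrays, shBEX2-1 replicate 1 was low in MYC (3.37 against 3.62 to 3.65, ratio 0.924). CD24 passed the threshold by limma without shNontarget replicate 2 (-0.56, adjusted p = 0.0342).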

How the results depend on the processing

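The number of markers called between knockdown and control cells was 0 under 19 of 22 alternatives, but 1 in the 4-vector model, 2 with shControl alone as control, and 0 to 1 without single arrays. For the other list genes the count of 26 became 52 with shControl alone, 3 with shNontarget alone, 13 with a minimum log2 difference of 1, and 11 to 40 without single arrays. CD24 turned to 0.13 with shNontarget alone, and EPCAM to -0.13 with shControl alone, with a range of -0.15 to 0.14 without single arrays (-0.15 without shNontarget replicate 2). In shBEX2-1 cells the count of 1 marker became 0 with shNontarget alone, 6 without both shNontarget arrays and 0 to 6 without single arrays. In shBEX2-2 cells the count of 0 became 3 without both shNontarget arrays and 0 to 3 without single arrays. PROM1 there turned to 0.20 with shNontarget alone, and ALDH1A3 lay between -0.040 and 0.094 without single arrays, below 0 without shNontarget replicate 2 or shBEX2-2 replicate 1 (-0.00096). Between the sublines the count of 0 became 4 without both shNontarget arrays and 0 to 4 without single arrays, and between the control vectors it was 0 to 4. Over all genes the count of 2649 became 6842 with shControl alone, 340 with shNontarget alone, 1162 with the minimum difference and 1246 to 4727 without single arrays. The causes were not tested. BEX2 and SRGN could not be fitted under the filter for all 8 arrays.

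The labels do not say that replicate numbers pair the arrays, while names of the deposited files give the numbers different days without saying of what. The replicate differences of the vectors correlated across genes with r between -0.063 and 0.259, above 0.1 in 5 of 6 pairs. These values do not show that the arrays are unpaired, and the replicate number was used as a block only as an alternative. With the replicate block the markers called were 0 between knockdown and control cells, 1 in shBEX2-1 (PROM1, adjusted p = 0.0398 by limma), 0 in shBEX2-2 and 0 between sublines or control vectors. The other list genes called were 23 and the called ALDH genes 2 instead of 4. Signals near background limit ALDH1A1, LGR5, ALDH3A1, SRGN and BEX2.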
